A study of Macaca fascicularis with 3 samples.

Results

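Oxidative phosphorylation runs through 5 complexes of the inner mitochondrial membrane. Complexes I to IV pass electrons to oxygen and, apart from complex II, pump protons, and complex V, the ATP synthase, uses the proton gradient to make ATP. Complexes I, III, IV and V are built from subunits of both genomes: the mitochondrial DNA encodes the core membrane subunits, and nuclear genes encode the rest, which are imported. The genes described here are the 13 protein-coding genes of the mitochondrial DNA and all nuclear genes whose symbol in the deposited gene list starts with NDUFA, NDUFB, NDUFC, NDUFS, NDUFV, UQCR, COX4I, COX5, COX6, COX7, COX8, ATP5F1, ATP5M or ATP5P. That rule found 58 of 26017 features, 13 mitochondrial and 45 nuclear. The nuclear genes were 35 complex I subunits, 7 complex I assembly factors of the NDUFAF series, NDUFA4 and NDUFA4L2, which belong with complex IV, and ATP5F1, an older symbol of the ATP synthase stator subunit b. The gene list gives most other subunits of complexes III, IV and V under gene numbers or older symbols. A further 39 such subunit genes, 24 named through their gene number and 15 under other symbols, were therefore followed as companions and counted apart: 7 of complex III, 17 of complex IV and 15 of complex V. All 58 members and all 39 companions passed the filter on low counts.

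The cells came from the cynomolgus monkey (Macaca fascicularis). Germ cells of 1 embryonic stem cell line, 15XRi-AGVT#7, wild type and carrying TFAP2C-EGFP and DDX4-tdTomato reporters, had been aggregated with mouse ovarian somatic cells of embryonic day E13.5, E14.5 or E15.5 into reconstituted ovaries, labelled ag49+52. Each stage had 1 single-cell library (10x Genomics 3' v3.1), made by mixing sorted monkey germ cells that carried a reporter signal with sorted mouse cells that did not. All 3 samples are labelled early oogonia, while the germ cells fell into 4 classes by markers, called early oogonia-like, late oogonia-like, retinoic acid-responsive-like and meiotic-like. The classes were built without any of the 97 genes. After the limits of at least 10000 UMIs (unique molecular identifiers, 1 per captured transcript) and 2 to 20% of them in the 13 mitochondrial genes, 2040 germ cells remained: 520 in E13.5, 498 in E14.5 and 1022 in E15.5. The early class held 477 of them, the late class 986, the retinoic acid-responsive class 472 and the meiotic class 105. Wherever 3 values are given for a class, they are those of the libraries in order of mouse stage.

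All 9 early markers, POU5F1, NANOG and TFAP2C among them, were highest in the early class, and all 13 meiotic markers found, such as SYCP3 and SPO11, were highest in the meiotic class. The 2 middle classes were less distinct. Of 8 retinoic acid-responsive markers, STRA8, REC8 and CRABP2 were highest in the class named for them, 4 (ANHX, ZGLP1, ZNF483 and ESX1) were highest in the late class and TKTL1 in the meiotic class. Of 8 late markers, DDX4 alone was highest in the late class. The files held 2807 cell barcodes in E13.5, 1565 in E14.5 and 3455 in E15.5. Of these, E13.5 and E14.5 shared 199, E13.5 and E15.5 shared 643, and E14.5 and E15.5 shared 212. The cause of this sharing was not tested, so the libraries may not be fully independent repeats. Median depth per germ cell was 55772 UMIs in E13.5, 43098 in E14.5 and 48430.5 in E15.5, and the germ cells used held 106392897 UMIs in all. The 22 mouse somatic markers summed to 117 to 148 CPM (UMIs of a gene scaled to a common total per library) in the early class, 393 to 447 in the late, 443 to 610 in the retinoic acid-responsive and 144.9 to 376 in the meiotic class, against 5536 to 6727 CPM in barcodes of mouse cells. Of these markers 18 were higher in late than in early cells. The supporting cell markers AMHR2 and WNT4 averaged at most 10.4 and 9.35 CPM in any germ class, against 294 and 599 CPM in mouse barcodes. But 5 of the 22, KRT19, GATA4, LRRN4, INHBB and MSLN, were higher in at least 1 germ class than in mouse barcodes. KRT19 averaged 185 CPM in late and 24.8 in early cells, against 118 CPM in mouse barcodes, and FST 44.7 and 2.24 CPM, against 61.3 CPM. Mouse barcodes held 0.0688 to 0.185% of their UMIs in the 13 mitochondrial genes, far under the germ cells, and 0.607 to 0.698% in the 45 nuclear members, nearer to them. All values of mouse barcodes, here and below, are counts on the monkey gene list. They depend on which mouse reads were assigned to monkey genes, and may not be levels in mouse cells.

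The first question was how much of the messenger RNA each genome supplied over the germ states. The 13 mitochondrial genes took 7.11, 7.15 and 9.31% of UMIs in the early class, 6.53, 6.67 and 8.76% in the late class, 7.85, 8.10 and 10.6% in the retinoic acid-responsive class and 7.23, 7.73 and 8.68% in the meiotic class. These shares, and the ratio below, are of cells chosen by this same share, at 2 to 20%. Barcodes over 20% numbered 114, 81 and 164 by library and were left out before clustering, so their class is not known. Under 2% were 2 germ cells in each library. The effect of these limits was not tested. The 45 nuclear genes took 0.854, 0.840 and 0.794% in the early class, 1.09, 1.09 and 1.06% in the late class, 1.18, 1.25 and 1.18% in the retinoic acid-responsive class and 1.03, 1.07 and 1.08% in the meiotic class. The nuclear share was thus lowest in early cells in every library, with no overlap between early and any other class. The mitochondrial shares of the classes overlapped across libraries, but within each library they kept a direction at each step. Late cells had 0.918 to 0.940 of the early share. Retinoic acid-responsive cells had 1.203 to 1.215 times the late share, and meiotic cells 0.822 to 0.954 of the retinoic acid-responsive share. Exact binomial 95% intervals, which cover counting error only, were narrow beside these gaps, for example 7.09 to 7.14% for the early mitochondrial share of E13.5. The nuclear gap between late and early cells was not particular to these genes. Scaled to total UMIs alone, the median nuclear member was 0.49 higher on the log2 scale in late cells, and the median of all genes tested 0.48.

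The ratio of mitochondrial to nuclear UMIs needs no scaling between cells. It was 8.33, 8.52 and 11.7 in the early class, 5.998, 6.12 and 8.23 in the late class, 6.63, 6.50 and 8.95 in the retinoic acid-responsive class and 7.00, 7.23 and 8.01 in the meiotic class. The means were 9.52 ± 1.91, 6.78 ± 1.26, 7.36 ± 1.38 and 7.41 ± 0.53 (SD, n = 3 libraries). Within a library the late ratio was 0.720, 0.718 and 0.702 of the early ratio, so the step was nearly equal in the 3 libraries, and no late value reached an early one. The retinoic acid-responsive value of E15.5 lay within the early range. From late to retinoic acid-responsive cells the ratio was 1.06 to 1.11 times as high in each library. Between retinoic acid-responsive and meiotic cells it went both ways, at 1.055 times in E13.5, 1.11 in E14.5 and 0.895 in E15.5. With the companions counted among the nuclear genes the ratio had the same order, with means of 3.93, 2.83, 3.07 and 3.08.

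**Figure D1:**
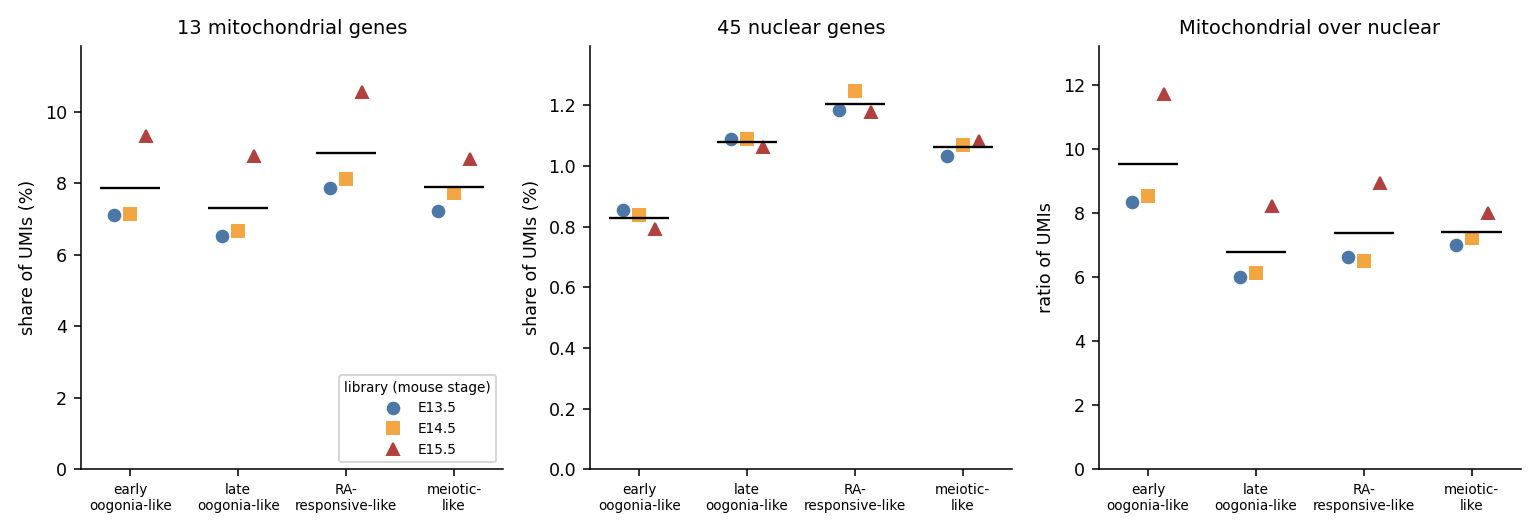
Share of UMIs in the 13 mitochondrial genes (left, percent), in the 45 nuclear genes (middle, percent) and their ratio (right), for 4 germ classes. Points are libraries, by mouse stage, and lines are means of 3 libraries. The early class has the lowest nuclear share, with a mean ratio of 9.52, and E15.5 has the highest mitochondrial share in each class.

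The step in the ratio differed in size between complexes, each complex taken with its companions. For the ATP synthase, ATP6 and ATP8 stood at 0.496 to 0.695 UMIs per nuclear UMI in late cells against 0.971 to 1.29 in early cells, and late values were 0.485 to 0.540 of early ones within libraries. For complex III, where CYTB is the only mitochondrial gene, the ratio was 5.66 to 8.01 in late cells against 9.88 to 13.45 in early cells. For complex IV the late ratio was 0.801 to 0.823 of the early one, and for complex I 0.749 to 0.792. The smaller steps were therefore those of complexes I and IV. These are ratios of transcript counts captured at the 3' end, not adjusted for differences in capture between genes.

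The levels of single genes were then compared between neighbouring classes after summing UMIs over the cells of each class in each library, with edgeR's quasi-likelihood test, library as a block and Benjamini-Hochberg adjustment over 14254 genes. A gene is said to have risen or fallen where its adjusted p was under 0.05. Since each stage has 1 library, the 3 libraries served as repeats of a class. With library as a block, p-values weigh a class difference against how far it varied between these libraries only. Level differences between libraries that all classes share do not enter them. Levels are CPM scaled by TMM factors (trimmed mean of M values), which are set so that most genes do not change. This scaling matters here. The factors were 0.696 to 0.793 in the early class, 1.02 to 1.12 in the late and retinoic acid-responsive classes and 1.15 to 1.21 in the meiotic class. Cytosolic ribosomal protein genes took 24.0 to 27.6% of UMIs in early cells, 14.1 to 15.9% in late, 12.7 to 15.4% in retinoic acid-responsive and 9.40 to 9.85% in meiotic cells. With library sizes alone the median gene was 0.48 higher on the log2 scale in late than in early cells, against 0.00 with TMM factors. Calls are therefore given under both scalings, the second having been added after the data were seen. Library sizes alone put the median gene higher than TMM factors did at each step. Every gene called higher with TMM factors was also called higher with library sizes alone. Agreement between the scalings therefore gives no further support to a rise, and only a fall could fail it.

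Between late and early cells, 12 of 13 mitochondrial genes fell and 0 rose with TMM factors, with a median log2 fold change of -0.45, while 14 nuclear members rose and 12 fell, with a median of 0.01. Of all genes tested 62.9% were called, 30.5% higher and 32.4% lower. With library sizes alone, 3 mitochondrial genes rose and 3 fell, and 34 nuclear members rose and 4 fell, against 54.7% of all genes higher and 16.0% lower. Calls held under both scalings for 3 mitochondrial genes, ATP6, CYTB and ND1, all lower, and for 18 nuclear members, 14 higher and 4 lower; the backgrounds under both scalings were 30.5% higher and 16.0% lower. The fall of the other 9 mitochondrial genes thus rests on the scaling. A change of at least 1.5-fold as well as the adjusted p was reached, with TMM factors, by 0 mitochondrial genes upward and 4 downward, and by 2 nuclear members upward and 4 downward, against 22.3% of all genes upward and 21.9% downward. After leaving out the 10% of germ cells with most mouse marker UMIs, 11 mitochondrial genes were lower, and 13 nuclear members were higher and 11 lower.

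ATP6 encodes subunit a of the ATP synthase, which forms the proton channel. Its scaled level was 3171, 3534 and 4757 CPM in late cells, against 6601, 8340 and 9298 CPM in early cells, with no overlap. It fell by 1.09 ± 0.08 on the log2 scale (SE, adjusted p = 3.3e-09 by edgeR), and by 0.61 with library sizes alone. CYTB, the cytochrome b of complex III that carries its quinone sites, stood at 9840, 11192 and 13556 CPM in late cells against 17655, 22237 and 23719 CPM in early cells. It fell by 0.88 ± 0.06, and by 0.40 with library sizes alone. ND1, a core membrane subunit of complex I at its quinone channel, stood at 5062, 5749 and 6526 CPM in late cells against 8139, 10153 and 10611 CPM in early cells and fell by 0.73 ± 0.07. All 3 genes were separated by class in every library.

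The remaining mitochondrial genes moved less. COX1, COX2 and COX3, the catalytic core of cytochrome c oxidase, had log2 fold changes of -0.48, -0.45 and -0.45 with TMM factors and of -0.01, 0.02 and 0.03 with library sizes alone. ND2, at -0.17, and ND5, at -0.31, turned to 0.30 and 0.17 with library sizes alone, both past the threshold in each direction. ND6, the complex I gene on the other DNA strand, was at -0.16 and not called, and was 0.31 higher with library sizes alone. Reads of ATP8 and ATP6, and of ND4L and ND4, overlap on the mitochondrial DNA, so the split between the genes of each pair is uncertain.

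**Figure D2:**
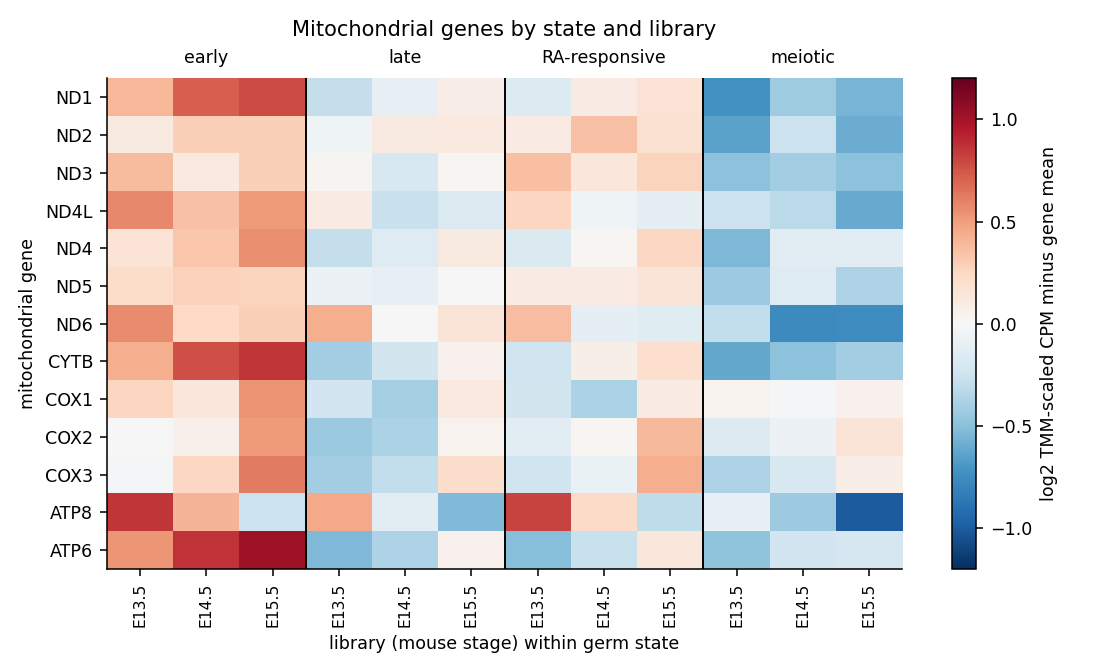
Scaled level of each mitochondrial gene (rows) in 12 sums of 1 class and 1 library (columns), as log2 TMM-scaled CPM minus the gene's mean, red above and blue below that mean. ATP6, CYTB and ND1 are high in the early columns, and ATP8 is lowest in E15.5 in every class.

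Shares within the mitochondrial transcripts need no scaling and showed the same unequal change. ATP6 made up 7.70 ± 0.38% of mitochondrial UMIs in early, 5.41 ± 0.27% in late, 4.88 ± 0.32% in retinoic acid-responsive and 5.60 ± 0.20% in meiotic cells (SD, n = 3). CYTB made up 20.2 ± 1.2, 16.4 ± 0.5, 16.2 ± 0.9 and 13.8 ± 0.4% in the same order. COX2, the copper-containing subunit that receives electrons from cytochrome c, made up 23.6 ± 1.7, 25.7 ± 0.7, 28.1 ± 0.8 and 31.8 ± 1.2%. COX2 thus took a larger mean share in each later class, while ND1 took smaller ones, of 9.21, 8.27, 7.81 and 6.28%. The CYTB share was nearly equal in late and retinoic acid-responsive cells. ATP6 had 0.305 to 0.374 UMIs per COX2 UMI in early cells and 0.164 to 0.216 in all later classes, without overlap.

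Among the nuclear complex I subunits, 11 of 35 rose and 10 fell between late and early cells with TMM factors, and 26 rose and 4 fell with library sizes alone. NDUFS7, which carries the last iron-sulfur cluster of the chain, stood at 190, 222 and 239 CPM in late cells against 98.5, 107 and 111 CPM in early cells and rose by 1.04 ± 0.08 (SE, adjusted p = 7.0e-09 by edgeR). The ranges did not overlap. With library sizes alone, which put most genes higher at this step, the log2 fold change was 1.51. In mouse barcodes NDUFS7 stood at 153 CPM without TMM factors. On that scale its mean was 79.2 CPM in early and 226 CPM in late cells. The part of mouse RNA in changes of single genes was not tested.

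NDUFS5, a small intermembrane-space subunit, showed the largest fall of the nuclear members. It stood at 472, 515 and 491 CPM in late cells against 949, 1212 and 901 CPM in early cells, a log2 fold change of -1.04 ± 0.08. NDUFA11, in the membrane arm, stood at 156, 198 and 178 CPM in late cells against 286, 416 and 286 CPM in early cells (-0.88 ± 0.09). NDUFB3, also in the membrane arm, fell by 0.67 ± 0.08 on the log2 scale. These 3 were lower under both scalings. Of the members that rose, NDUFB11 stood at 271, 318 and 298 CPM in late cells against 154, 202 and 194 CPM in early cells (0.69 ± 0.08). NDUFS4, in the electron-input arm, rose by 0.50 ± 0.08, and NDUFV1, which binds NADH and FMN, by 0.42. NDUFS1, the largest iron-sulfur subunit, rose by 0.24, and NDUFA9 fell by 0.50 with TMM factors and was at -0.03 with library sizes alone.

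Of the 7 assembly factors, which help build complex I and are not part of the finished enzyme, NDUFAF3 and NDUFAF6 rose (0.46 and 0.33) and NDUFAF5 fell by 0.33, the last with TMM factors only. NDUFA4, a subunit of cytochrome c oxidase in spite of its name, rose by 0.22. ATP5F1 fell by 0.27 with TMM factors and rose by 0.21 with library sizes alone.

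Among the 39 companions, 7 rose and 16 fell in late against early cells with TMM factors, and 26 rose and 6 fell with library sizes alone. Calls under both scalings numbered 7 higher and 6 lower. Of all genes 30.5% rose and 32.4% fell with TMM factors, 54.7% rose and 16.0% fell with library sizes alone, and 30.5% rose and 16.0% fell under both. ATP5E, the epsilon subunit of the ATP synthase, stood at 1585, 1491 and 1371 CPM in late cells against 1032, 993 and 930 CPM in early cells and rose by 0.59 ± 0.07. The 3 genes for subunit c, which forms the rotor ring and is the same mature protein from each gene, differed: ATP5G1 fell by 0.84 ± 0.08, ATP5G2 by 0.35 with TMM factors while it was at 0.12 with library sizes alone, and ATP5G3 was at -0.07 and not called. ATP5C1, the gamma subunit at the centre of the rotor, fell by 0.75 ± 0.08. UQCRC2, a core protein of complex III, rose by 0.31, while UQCRC1, its partner, was at -0.09 and not called.

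**Figure D3:**
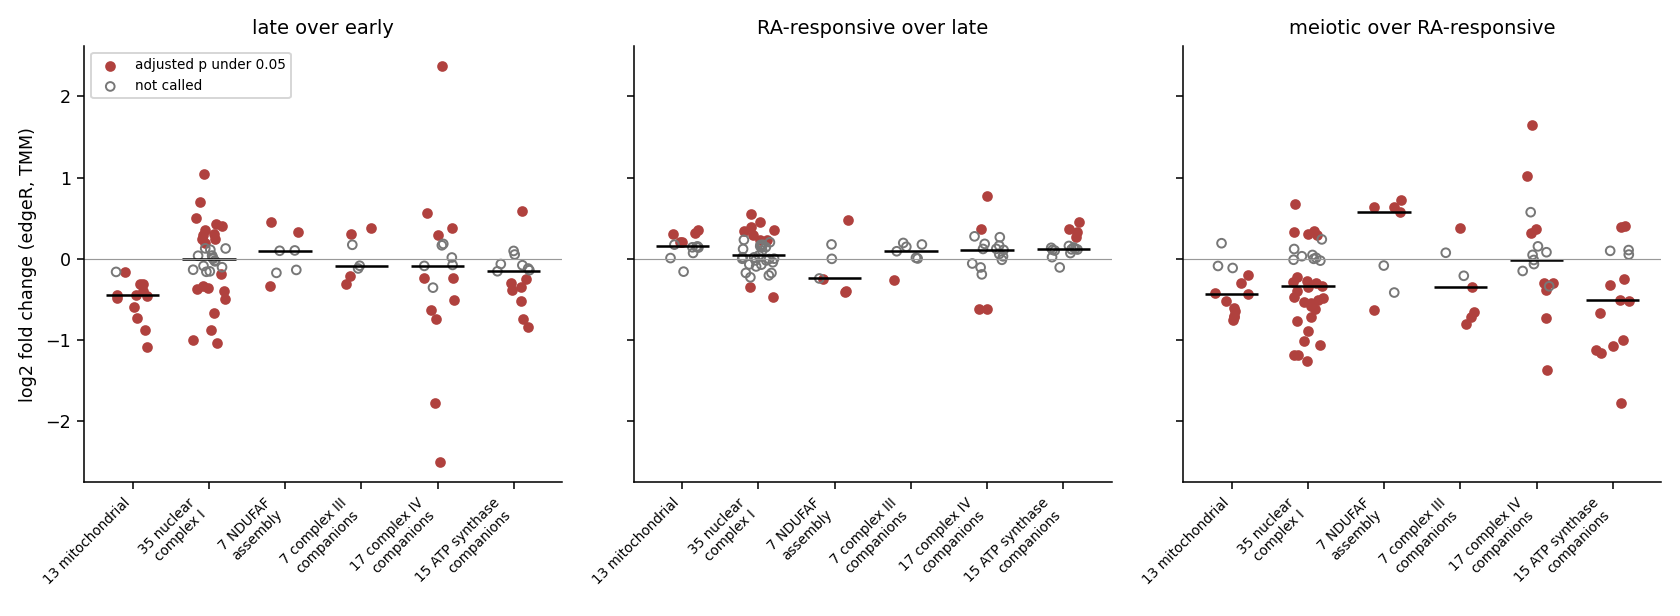
Log2 fold change (edgeR, TMM-scaled) of each gene for late over early, retinoic acid-responsive over late and meiotic over retinoic acid-responsive cells, by gene group. Filled points passed an adjusted p of 0.05, open points did not, and lines are group medians. The mitochondrial median is -0.45 in the first panel, 0.15 in the second and -0.44 in the third.

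Several subunits of complex IV exist in alternative forms, and in 1 pair the forms changed places over the germ states. COX8A is the widely expressed form of subunit VIII, and COX8C is known from the human testis. COX8A stood at 287, 329 and 268 CPM in early cells, 167, 193 and 168 CPM in late, 96.0, 134.7 and 116 CPM in retinoic acid-responsive and 39.4, 36.1 and 50.05 CPM in meiotic cells. COX8C stood at 223, 177 and 226 CPM, 300, 316 and 310 CPM, 348, 305 and 354 CPM and 460, 457 and 393 CPM in the same order. No early library overlapped a later class for either gene. The number of COX8C UMIs per COX8A UMI, free of any scaling, was 0.721 ± 0.162 in early, 1.76 ± 0.11 in late, 2.98 ± 0.68 in retinoic acid-responsive and 10.7 ± 2.5 in meiotic cells (SD, n = 3), with no overlap between classes.

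By edgeR, COX8A fell at each step under both scalings, by 0.74 ± 0.10 from early to late cells, by 0.62 ± 0.10 in retinoic acid-responsive cells and by 1.37 ± 0.13 in meiotic cells (SE, adjusted p = 5.3e-06, 2.8e-04 and 4.7e-07). COX8C rose by 0.57 ± 0.10 in late cells (adjusted p = 6.7e-05) and by 0.37 ± 0.10 in meiotic cells (adjusted p = 0.0049), and was at 0.12 between retinoic acid-responsive and late cells (adjusted p = 0.36). In mouse barcodes COX8C stood at 8.72 CPM and COX8A at 298 CPM, without TMM factors. On that scale their means were 158 and 220 CPM in early cells and 517 and 49.7 CPM in meiotic cells. COX8C is listed under a gene number and was named through the RefSeq gene table.

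The other pairs did not exchange places. COX6B2, the testis form of subunit VIb in human, stood at 22.1, 14.6 and 16.99 CPM in early, 5.42, 4.72 and 5.34 CPM in late, 10.5, 5.28 and 9.84 CPM in retinoic acid-responsive and 26.3, 15.8 and 15.0 CPM in meiotic cells. Its mean was lowest in late cells, with a fall of 1.78 ± 0.17 against early cells and rises of 0.77 ± 0.18 and 1.01 ± 0.22 at the next steps. It stayed between 0.0139 and 0.0676 UMIs per UMI of the common form COX6B1. COX7A1, known from heart and skeletal muscle, had 0.0837 ± 0.0057 UMIs per UMI of the common form COX7A2 in early, 0.122 ± 0.006 in late, 0.149 ± 0.029 in retinoic acid-responsive and 0.154 ± 0.011 in meiotic cells. COX4I2, a form linked to low oxygen, had 0.00398 to 0.0150 UMIs per COX4I1 UMI. COX7B2 stood at 1.15, 1.34 and 2.60 CPM in late cells against 2.90, 10.6 and 16.8 CPM in early cells and fell by 2.51 ± 0.30, and E13.5 was far under the other early libraries. COX6A2, the muscle form of subunit VIa, and NDUFA4L2 were at most 4.69 and 7.51 CPM in any sum, with 0 UMIs in the early class of E14.5, too few for a reliable fold change, although edgeR called NDUFA4L2 higher in retinoic acid-responsive than in late cells and COX6A2 higher in late and in meiotic cells.

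**Figure D4:**
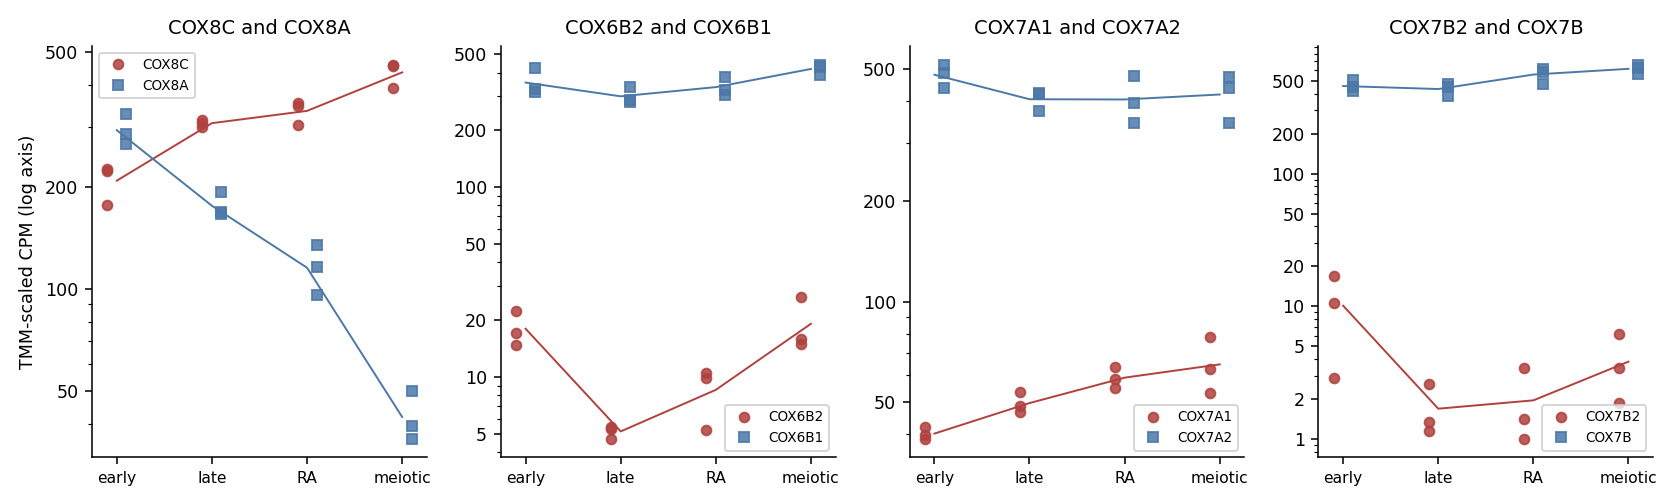
TMM-scaled CPM (log axes of different range) of 4 pairs of alternative complex IV subunits over the germ classes (RA, retinoic acid-responsive), with points for libraries and lines through their means. COX8C is under COX8A in early cells and above it in every later class, at 460, 457 and 393 CPM against 39.4, 36.1 and 50.05 CPM in meiotic cells. The other pairs keep their order.

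Between retinoic acid-responsive and late cells fewer members were called than between late and early cells, as were fewer of all genes. Most changes were small. Of the mitochondrial genes 5 rose and 0 fell, against 2071 of 14254 genes higher and 16.3% lower, 30.8% in either direction. They were COX2 (0.35 ± 0.06), ATP8 (0.31), ND3 (0.30), CYTB (0.20) and COX3 (0.20), and all 5 also rose with library sizes alone, when 9 rose. COX2 stood at 19558, 21706 and 27942 CPM in retinoic acid-responsive cells against 15764, 16421 and 22062 CPM in late cells, higher in each library although the ranges overlap. With library sizes alone 17.1% of all genes rose and 12.5% fell. No mitochondrial gene reached 1.5-fold, and 1 nuclear member did so upward and 0 downward, against 8.91% of all genes upward and 5.96% downward. That member was NDUFA4L2, at means of 0.85 CPM in late and 2.26 CPM in retinoic acid-responsive cells, too sparse for a reliable fold change. Without E13.5 only 1 of the 13 was called higher, and without E15.5 there were 3. Fewer of all genes were then called too, 11.1% without E13.5 and 16.7% without E15.5 in either direction.

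Of the nuclear members 10 rose and 5 fell, and 10 and 4 under both scalings. Among all 14254 genes 2071 rose and 2319 fell with TMM factors, and 2071 rose and 1775 fell under both scalings. NDUFC2, in the membrane arm, stood at 419, 416 and 424 CPM in retinoic acid-responsive cells against 291, 273 and 299 CPM in late cells and rose by 0.54 ± 0.09 (SE, adjusted p = 2.4e-04 by edgeR). NDUFS7 rose again, by 0.45 ± 0.07, NDUFA11 by 0.40 and NDUFB10 by 0.35. NDUFA10 fell by 0.36. The assembly factor NDUFAF1 rose by 0.47 ± 0.09, while NDUFAF3, NDUFAF5 and NDUFAF4 fell by 0.41, 0.41 and 0.25, the last with TMM factors only. The nuclear counts were 4 higher and 0 lower without E13.5, when 11.1% of all genes were called in either direction. They were 6 higher and 2 lower without E15.5, when 16.7% of all genes were called. Among the 39 companions 6 rose and 3 fell, and 6 and 2 under both scalings, with ATP5C1 at 0.45 ± 0.08. Rises were about as frequent among the companions as among all genes.

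Between meiotic and retinoic acid-responsive cells, 10 mitochondrial genes fell and 0 rose, and 24 nuclear members fell and 9 rose, against 23.6% of all genes higher and 27.5% lower, 51.1% in either direction. The median log2 fold changes were -0.44 and -0.29, and that of all genes -0.06. With library sizes alone, which put the median of all genes at 0.06, 9 mitochondrial genes fell and 1 rose, and 17 nuclear members fell and 11 rose, when 28.3% of all genes rose. Here calls under both scalings numbered 9 lower for mitochondrial genes and 17 lower and 9 higher for nuclear members, against 21.9% of all genes lower and 23.6% higher. With 1.5-fold required as well, 5 mitochondrial genes were lower and 0 higher, and 10 nuclear members were lower and 4 higher, against 20.7% of all genes lower and 18.2% higher. The meiotic class held only 22 cells in E13.5.

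The mitochondrial genes lower under both scalings were the 7 ND genes, CYTB and ATP8. ND2 stood at 2638, 3427 and 2719 CPM in meiotic cells against 4395, 5251 and 4659 CPM in retinoic acid-responsive cells and fell by 0.71 ± 0.07 (adjusted p = 5.3e-07 by edgeR). ND3 fell by 0.72, ND6 by 0.65, ND1 by 0.61, CYTB by 0.52, ND5 by 0.44, ND4L by 0.42 and ND4 by 0.30. ATP8, at 211, 167 and 113 CPM in meiotic cells against 396, 266 and 183 CPM in retinoic acid-responsive cells, fell by 0.76 ± 0.09. The cytochrome c oxidase genes moved less. COX1 was at 0.19 ± 0.08 (adjusted p = 0.055), COX2 at -0.12 (adjusted p = 0.11) and COX3 at -0.20 (adjusted p = 0.012), and ATP6 was at -0.09 (adjusted p = 0.34). With library sizes alone COX1 rose by 0.32 and COX3 was at -0.06 and not called.

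Of the nuclear complex I subunits 22 fell and 5 rose in meiotic cells, and 15 fell and 5 rose under both scalings. NDUFB5, in the membrane arm, stood at 172, 138 and 182 CPM in meiotic cells against 351, 408 and 371 CPM in retinoic acid-responsive cells and fell by 1.18 ± 0.10 (SE, adjusted p = 1.1e-07 by edgeR). NDUFA3 stood at 70.4, 51.0 and 58.4 CPM in meiotic cells against 176, 155.3 and 119 CPM in retinoic acid-responsive cells (-1.26 ± 0.11), and NDUFB2 at 250, 201 and 265 CPM against 519, 637 and 517 CPM (-1.19 ± 0.11). NDUFA12, NDUFB1, NDUFC1, NDUFA2 and NDUFB4 fell by 1.07, 1.01, 0.89, 0.77 and 0.72. No class ranges overlapped for NDUFB5, NDUFA3 and NDUFB2. NDUFV1, the NADH-binding subunit, rose instead: it stood at 243, 301 and 297 CPM in meiotic cells against 145.3, 198 and 185 CPM in retinoic acid-responsive cells (0.68 ± 0.08). NDUFS3 and NDUFA11 rose by 0.33 and 0.34.

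Of the 7 assembly factors 4 rose in meiotic cells, NDUFAF1 (0.72 ± 0.11), NDUFAF3 (0.64 ± 0.10), NDUFAF4 (0.63 ± 0.09) and NDUFAF5 (0.58), and NDUFAF6 fell by 0.64, each under both scalings. NDUFAF1, which acts in building the membrane arm, stood at 55.4, 63.3 and 55.5 CPM in meiotic cells against 33.2, 35.2 and 36.3 CPM in retinoic acid-responsive cells. The 7 together took 0.0496 to 0.0581% of UMIs in meiotic cells and 0.0335 to 0.0354% in retinoic acid-responsive cells.

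Of the 15 companions of the ATP synthase 10 fell and 2 rose with TMM factors, against 27.5% of all genes lower and 23.6% higher. Under both scalings 8 fell and 2 rose, against 21.9% and 23.6% of all genes. ATP5D, the delta subunit of the central stalk, stood at 43.2, 51.9 and 65.0 CPM in meiotic cells against 177, 216 and 185 CPM in retinoic acid-responsive cells and fell by 1.77 ± 0.12 (adjusted p = 1.2e-08 by edgeR). ATP5A1, the alpha subunit of the catalytic head, stood at 263, 287 and 352 CPM in meiotic cells against 601, 653 and 664 CPM in retinoic acid-responsive cells (-1.08 ± 0.08), while the beta subunit ATP5B fell by 0.52. USMG5 and ATP5J2, small membrane subunits, fell by 1.16 and 1.12. ATP5C1 and C7H14orf2 rose by 0.41 and 0.39. Of the 17 complex IV companions 5 fell and 4 rose, and of the 7 of complex III 4 fell, with UQCRB at -0.81 and UQCRC1 at -0.72, and UQCRH rose by 0.37.

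Levels moved together within the mitochondrial genome more than within the nuclear set. Over the 12 sums of 1 class and 1 library, the 78 pairs of mitochondrial genes had a median Pearson correlation of 0.64 in log2 level, and 93.6% were positive. The 861 pairs of nuclear members with at least 20 CPM had a median of 0.09, and the 546 pairs of 1 gene from each genome a median of 0.18. These values are a description, since the sums share libraries and classes. Outside the 97 genes, the summed mitochondrial level was most like that of LOC102130574, OTUD5, ZFP64, EIF3G and TAF9 (r of 0.90 to 0.92), and the summed nuclear level most like that of PSMA2, LOC107127816, ZNF560, MYL12B and C5H4orf3 (r of 0.93 to 0.96). Across cells of 1 library and class, Spearman's rho between the share of the mitochondrial genes and that of the nuclear members was between -0.35 and 0.19. The mitochondrial share ran against depth, with rho between -0.47 and -0.06, and median depth was lower in retinoic acid-responsive and meiotic cells (33029.5 to 47287 UMIs) than in early and late cells (44364 to 61761) of the same library.

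Genes that make, process or translate mitochondrial RNA were set beside the members. Of 22 genes of mitochondrial transcription and RNA stability tested, 13 fell and 1 rose in late against early cells with TMM factors, while with library sizes alone 6 fell and 7 rose. Of all genes 32.4% fell and 30.5% rose with TMM factors, and 16.0% fell and 54.7% rose with library sizes alone. Lower under both scalings were 6, among them the poly(A) polymerase MTPAP (-1.35 with TMM factors), the RNA-processing subunit TRMT10C (-1.14) and the transcription factor TFB2M (-0.93). TFAM, which packages mitochondrial DNA, and the polymerase POLRMT were at -0.07 and -0.01 and not called there, and were called higher with library sizes alone. Both fell in meiotic against retinoic acid-responsive cells, with log2 fold changes of -0.99 and -1.198, and so did LRPPRC, which stabilises mitochondrial messages, at -1.34, each under both scalings. Of 72 mitochondrial ribosomal protein genes 38 fell and 3 rose in late against early cells with TMM factors, but 15 fell and 35 rose with library sizes alone. At the meiotic step 32 fell and 14 rose with TMM factors, and 21 fell and 21 rose with library sizes alone. Of all genes 27.5% fell and 23.6% rose at that step with TMM factors, and 21.9% fell and 28.3% rose with library sizes alone.

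Of the 4 complex II genes, all nuclear, SDHC fell in late cells under both scalings, by 0.75 with TMM factors, and SDHD was at -0.31 with TMM factors and 0.17 with library sizes alone. Both rose in meiotic cells, by 0.33 and 1.04. Of 17 genes of the tricarboxylic acid cycle and its feeder enzyme, 7 rose and 3 fell in late against early cells, and 13 rose and 1 fell with library sizes alone, against the shares of all genes given for these steps. In meiotic against retinoic acid-responsive cells 10 of them fell and 3 rose, and 7 fell and 4 rose with library sizes alone. SUCLG2 fell by 2.06 and PDHA1 rose by 1.17 at that step. Cytochrome c (CYCS), the carrier between complexes III and IV, fell at each step with TMM factors, by 0.61, 0.37 and 0.41, and at the last 2 steps with library sizes alone.

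The libraries were compared last. Each mouse stage has 1 library, so these differences have no replicate check and carry no p-value, and stage cannot be told apart from library. In all germ cells the mitochondrial genes took 6.94% of UMIs in E13.5, 7.11% in E14.5 and 9.22% in E15.5, and the nuclear members 1.07, 1.04 and 1.01% in that order. The ratio was 6.47, 6.82 and 9.10. Within classes the mitochondrial share of E15.5 was 1.201 to 1.345 times that of E13.5, and the nuclear share 0.930 to 1.05 times.

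The 13 genes did not differ alike between E15.5 and E13.5. COX3 had 20763 CPM in E15.5 and 13765 in E13.5, and ATP6 had 5632 and 3732 CPM, log2 ratios of 0.59 each. COX2, CYTB, ND4, ND1 and COX1 had log2 ratios of 0.45, 0.44, 0.36, 0.34 and 0.28. ND2, ND5 and ND3 stood at 0.07, 0.00 and -0.12. ND4L, ND6 and ATP8 ran the other way, at -0.27, -0.40 and -1.10, and ATP8 had 164 CPM in E15.5 (exact Poisson 95% interval 160 to 167) and 353 CPM in E13.5 (346 to 359). ATP8 was lower in E15.5 in each class, by 0.92 to 1.17 on the log2 scale, with 219 CPM in E14.5 between the others. COX3 and ATP6 were higher in E15.5 in each class, by 0.43 to 0.65 and 0.26 to 0.61. ATP8 and ND6 were the least abundant of the 13.

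**Figure D5:**
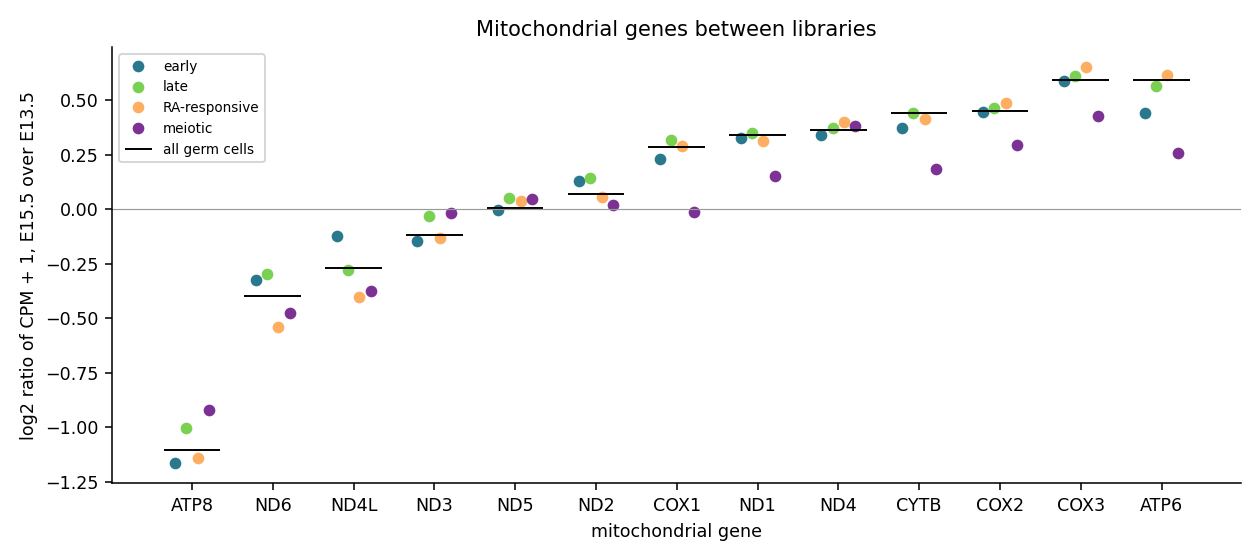
Log2 ratio of CPM + 1 between E15.5 and E13.5 for the 13 mitochondrial genes, in order, with points for germ classes and lines for all germ cells. ATP8 lies near -1.10 and COX3 and ATP6 near 0.59, and COX1 is at -0.01 in the meiotic class, under its other classes. There is 1 library per stage.

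A ratio of at least 1.5-fold, with at least 20 CPM in 1 of the libraries, was reached between E15.5 and E13.5 by 2 members that were higher, COX3 and ATP6, and 3 that were lower, ATP8, NDUFA3 (-0.66) and NDUFB1 (-0.59). Of all 7494 genes at that level, 0.56% were higher and 1.43% lower by as much, 1.99% in either direction. Between E14.5 and E13.5, ATP8 and NDUFA4 (-0.79) were lower and 0 members higher, against 1.11% of 7395 genes lower and 1.2% higher, 2.31% in either direction. NDUFA4 had 254 CPM in E14.5, 338 in E15.5 and 440 in E13.5, with E14.5 under E13.5 in each class by 0.56 to 0.80. Between E15.5 and E14.5 no member differed by 1.5-fold, against 0.969% of 7328 genes higher and 0.873% lower, 1.84% in either direction. With equal weight to each class, or with the mean over cells, no member was 1.5-fold higher in E15.5 than in E13.5.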

How the data were processed

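The members and gene lists were chosen with earlier results of these data known. The deposited values are UMI counts per gene and called barcode from Cell Ranger 6.0.1, per the file headers; the genome build is not given in the sources used here. Barcodes with at least 1000 UMIs and at most 20% of them in the 13 mitochondrial genes were clustered with scanpy 1.11.5 (2000 variable genes, 30 principal components, 15 neighbours, Leiden resolution 1), leaving out members, companions and ribosomal protein genes. Of 17 clusters, 6 were named as germ classes from markers; a cluster led by SOHLH1 and PIWIL4 and a shallow cluster of 445 cells stayed unnamed. No doublet caller was run; leaving out the 10% of cells with most UMIs is an alternative. Clustering genes and class markers outside the member lists were left out of the tests, 2037 genes in all.

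Counts were summed over 12 pairs of class and library and tested with edgeR 4.0.16 (quasi-likelihood, filterByExpr, TMM factors, library as a block, Benjamini-Hochberg); DESeq2 1.42.0 was an alternative, as were other scalings, filters, clusterings, cell sets and leaving out each library. Libraries were compared by log2 ratios of CPM + 1 without a test, with exact binomial or Poisson 95% intervals that cover counting error only. The labels do not say that the libraries came from separate cultures. Companions were named through the RefSeq gene table of assembly T2T-MFA8v1.1, used for names only, which gave a symbol to 669 of 9282 features listed by gene number. Processed pseudogene copies can share reads with nuclear members. Text names all mitochondrial genes, alternative forms and core subunits, and up to 10 nuclear members of largest change per comparison that moved the same way in 3 of 3 libraries; other genes named were chosen after their values were seen, and a result that the rule would name is not reported here. The tests were also run on simulated counts in which few genes changed, equally up and down, and no gene differed between libraries. That run cannot show how the tests behave where as many genes change as here.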

Additional observations from a re-analysis of the deposited data

Results flagged for a closer look

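A germ cell cluster that no comparison above uses, led by SOHLH1 and PIWIL4 and left unnamed, had a lower ratio of mitochondrial to nuclear UMIs than each of the 4 named classes in the same library. The ratio was 4.781 in E13.5, 5.572 in E14.5 and 7.608 in E15.5, over 14, 36 and 88 cells. The low ratio was not particular to this cluster. A cluster led by PLK1 and UBE2C, pooled into the late class, had ratios of 5.67, 5.56 and 7.84, the lower of the clusters compared in E14.5. In the unnamed cluster the shares were as follows. The mitochondrial genes took 5.43, 5.49 and 6.83% of its UMIs and the nuclear members 1.14, 0.985 and 0.898%. The unnamed cluster was noticed as a signal in cells outside the comparisons, and the difference was not tested.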

How the results depend on the processing

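The counts of members called moved with the scaling, the fold required and the libraries used, and the cause was not tested. With library sizes alone, late against early cells gave 3 mitochondrial members higher and 3 lower and 34 nuclear members higher and 4 lower, retinoic acid-responsive against late cells gave 9 mitochondrial members higher, and meiotic against retinoic acid-responsive cells gave 1 higher. In that setting 10 of the named calls of late against early cells turned positive: COX7A2 0.23, ATP5G2 0.12, COX6B1 0.24, ND2 0.30, COX2 0.021, ATP8 0.074, COX3 0.028, ND3 0.17, ND4 0.0088 and ND5 0.17. Over all 97 genes 43 log2 changes turned positive at that step, 22 of them called lower with TMM factors. With 1.5-fold required, late against early cells kept 4 mitochondrial members lower, 2 nuclear higher and 4 lower. The next step kept 0 mitochondrial higher, 1 nuclear higher, the sparse NDUFA4L2, and 0 lower. The meiotic step kept 5 mitochondrial lower, 4 nuclear higher and 10 lower. Leiden resolution 2 gave 3 mitochondrial members higher and 8 nuclear lower in retinoic acid-responsive against late cells. In meiotic against retinoic acid-responsive cells 1 mitochondrial member was higher with DESeq2 size factors, the DESeq2 Wald test, Leiden resolution 2, or without the cells of most mouse marker UMIs or most UMIs. Leaving out each library in turn gave 8 to 13 nuclear members higher in late against early cells, with 8 without E13.5 and 8 without E15.5. It gave 1 to 4 mitochondrial members higher, 4 to 9 nuclear higher and 0 to 6 nuclear lower at the next step. At the meiotic step it gave 0 to 1 mitochondrial higher. Of all genes 52.1 to 59.5%, 11.1 to 28.9% and 39.4 to 44.1% were called at these steps with a library left out. With all libraries the shares were 62.9, 30.8 and 51.1%. Of 89 named calls 76 held in every setting other than library sizes alone, 1.5-fold and leaving out a library, and 61 with the left-out libraries counted as well. Without E13.5 63 held, without E14.5 81 and without E15.5 73, where COX6A2 was under the filter on low counts and had no value. For libraries, E14.5 against E13.5 had 1 member lower with TMM factors and 0 at 2-fold; E15.5 against E13.5 had 0 higher with equal weight to each class, with the mean over cells and at 2-fold, and 1 lower with equal weight and at 2-fold. Counting companions as nuclear put the ratio at 3.93, 2.83, 3.07 and 3.08 in early, late, retinoic acid-responsive and meiotic cells. Classes were compared within libraries, with library as a block in each test. Mouse stages could not be tested against each other because each has 1 library.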

Other observations

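Helpers that build the complexes were set beside the subunits, with edgeR and TMM factors. Of 21 assembly genes of complexes III and IV tested, 6 fell and 3 rose in late against early cells, but 3 fell and 15 rose with library sizes alone. Of all genes 32.4% fell and 30.5% rose at that step with TMM factors, and 16.0% fell and 54.7% rose with library sizes alone. In meiotic against retinoic acid-responsive cells 10 of them fell and 3 rose, and 9 fell and 3 rose with library sizes alone, against 27.5% of all genes lower and 23.6% higher, and 21.9% and 28.3% with library sizes alone. Of 3 ATP synthase assembly genes, ATPAF1 rose in late cells, by 1.63 on the log2 scale, and 2 rose and 0 fell in meiotic cells, under both scalings. Of 7 genes of mitochondrial DNA replication, 3 fell and 0 rose in late cells, but 1 fell and 4 rose with library sizes alone, and 2 rose and 1 fell in meiotic cells under either scaling. MTERF3, a regulator of mitochondrial transcription and ribosome assembly, rose by 1.502 in meiotic cells, also with library sizes alone. Of 9 regulators of mitochondrial biogenesis 5 fell and 2 rose in late against early cells, and 3 fell and 4 rose with library sizes alone.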
